A study of Mus musculus with 9 samples.

Results

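Cxcl1, Cxcl2, Cxcl3 and Cxcl5 encode the mouse CXC chemokines that attract neutrophils. They were chosen by name, and all 4 were among the 17730 genes of the deposited expression table, whose unit is FPKM (mapped fragments scaled by transcript length and by the fragments mapped in the library). The RNA came from primary astrocytes of wild-type C57BL/6 mice, taken at P0, which had received microglia-conditioned medium (MCM). LPS-MCM (3 libraries) came from microglia exposed to lipopolysaccharide (LPS), the bacterial ligand of Toll-like receptor 4, and Hemin-MCM (3 libraries) from microglia exposed to hemin, a breakdown product of hemoglobin. Both groups thus received medium of stimulated microglia. Cultures given medium of resting microglia were not analysed here, so a gene called higher or lower is so in LPS-MCM against Hemin-MCM, and either group may be the one that moved.

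Chemokines of this kind carry the amino acids glutamate, leucine and arginine before their CXC motif and bind the receptor CXCR2 on neutrophils, which then adhere to vessels and leave the blood. Their genes are transcribed within a short time after interleukin 1, tumor necrosis factor or Toll-like receptor ligands activate the transcription factor NF-kB, and their transcripts are short-lived because proteins bind AU-rich elements in the 3′ untranslated region (UTR). In the injured or infected brain, astrocytes and microglia are known sources of them.

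The 4 genes lie on chromosome 5 of GRCm38.p6 within 146.6 kb, from 90759298 to 90905938, in the order Cxcl5, Cxcl3, Cxcl1 and Cxcl2. Cxcl5 spans 90759298 to 90761625, Cxcl3 90786101 to 90788093, Cxcl1 90891245 to 90893121 and Cxcl2 90903899 to 90905938, and 10.8 kb separate Cxcl1 from Cxcl2. RefSeq promoters were at hand for 3 of the 4 genes, and the 250 bases before the annotated start are shown because a 10-base NF-kB site stands in each of them. Capitals mark that site, GGGAATTTCC, and further on the TATA-like run ATAAAAGG. The promoter of Cxcl1 is chr5:90890995-90891244, that of Cxcl2 chr5:90903649-90903898 and that of Cxcl3 chr5:90785851-90786100, all on the plus strand.
Cxcl1: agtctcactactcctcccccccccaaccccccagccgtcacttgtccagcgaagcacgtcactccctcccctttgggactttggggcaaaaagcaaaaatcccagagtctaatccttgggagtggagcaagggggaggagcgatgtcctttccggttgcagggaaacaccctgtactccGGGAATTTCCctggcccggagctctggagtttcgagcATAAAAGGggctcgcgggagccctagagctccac
Cxcl2: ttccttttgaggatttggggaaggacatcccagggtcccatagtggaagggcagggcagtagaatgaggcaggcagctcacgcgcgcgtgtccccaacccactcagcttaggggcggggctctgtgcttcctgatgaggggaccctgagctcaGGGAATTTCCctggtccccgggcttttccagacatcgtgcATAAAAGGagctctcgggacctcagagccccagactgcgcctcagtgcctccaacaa
Cxcl3: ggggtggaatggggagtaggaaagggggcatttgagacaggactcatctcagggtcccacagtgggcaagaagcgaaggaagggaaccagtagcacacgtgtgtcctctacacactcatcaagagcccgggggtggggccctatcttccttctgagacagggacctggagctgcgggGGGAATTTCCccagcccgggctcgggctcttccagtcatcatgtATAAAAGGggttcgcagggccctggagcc

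The site GGGAATTTCC was taken from these promoters as the 10-base word of the NF-kB form (GGG, any 5 bases, CC) that all 3 share. Searched on both strands, it was found in 28 of 32851 RefSeq promoters of the same length (0.0852%). It covers bases 71 to 62 before the start of Cxcl1, 97 to 88 before that of Cxcl2 and 73 to 64 before that of Cxcl3. The looser NF-kB form, of which it is a case, was in 45.8% of promoters and ATAAAAGG in 1.54%. Neither the AP-1 motif TGANTCA (6.75% of promoters) nor the C/EBP motif TTGCNNAA (9.56%) was in any of the 3 windows. Of tested genes with the looser form, 6.49% were higher in LPS-MCM, against 6.32% of those without it. The shares with and without the motif were 10.3% and 6.22% for AP-1 and 9.22% and 6.17% for C/EBP. For ATAAAAGG they were 11.4%, with the 3 chemokines included, and 6.39%. Of tested genes without GGGAATTTCC, 6.39% were higher. Among tested genes other than these chemokines, 8 had GGGAATTTCC, and 2 of the 8 were higher in LPS-MCM. They were Nfkbia, which encodes the NF-kB inhibitor IkB-alpha (336 ± 12.7 FPKM in LPS-MCM against 263 ± 9.14 FPKM in Hemin-MCM, SD, n = 3 each), and the guanylate-binding protein gene Gbp5 (297 ± 13.1 and 204 ± 9.84 FPKM in the same groups).

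The transcripts also share pentamers of AU-rich elements, ATTTA in DNA letters, in their 3′ UTRs. In the GENCODE M21 transcripts with a RefSeq entry, Cxcl2 had 11 of them in 734 bases, Cxcl1 7 in 592, Cxcl3 5 in 645 and Cxcl5 5 in 1111. Over 11362 tested genes the median was 2, and 0.264% of them were at least as dense in pentamers as Cxcl2, 0.607% as Cxcl1, 2.02% as Cxcl3 and 8.38% as Cxcl5. By number alone the UTRs were less unusual, since 5.07% of genes had at least as many pentamers as Cxcl2, 13.2% as many as Cxcl1 and 21.8% as many as Cxcl3 or Cxcl5. The 30-base stretch of each UTR that holds the most pentamers is given with ATTTA in capitals, since the 4 differ in it. It starts 83 bases after the stop codon in Cxcl1 (chr5:90892606-90892635), 123 in Cxcl2 (chr5:90905327-90905356), 188 in Cxcl3 (chr5:90787636-90787665) and 133 in Cxcl5 (chr5:90760646-90760675), all on the plus strand.
Cxcl1: gtcctATTTATTTAtgtATTTATTTAttcc
Cxcl2: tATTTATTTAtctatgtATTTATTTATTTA
Cxcl3: gcatcttATTTAatgtttATTTAatatcaa
Cxcl5: atctcacaagtgtATTTAgcaaaaatattt

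The stretch held 5 pentamers in Cxcl2, 4 in Cxcl1, 2 in Cxcl3 and 1 in Cxcl5. A match is a description of the letters and does not show binding or decay.

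Library totals lay between 348382.7 and 359093.4 FPKM. From the steps in which low values rise, the depth was estimated at 34600000 to 38100000 fragments per library, with quartiles of 15600000 and 39100000 over the 83 genes used. At that depth the lowest value of any of the 4 genes, that of Cxcl3 in a Hemin-MCM library, stands for about 430 fragments. The labels name no separate cultures or animals behind the replicates of a group, and the p-values therefore rest on a spread between libraries that can be technical.

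All 4 chemokine genes were higher in LPS-MCM, and for each of them every LPS-MCM library lay above every Hemin-MCM library. Of 11688 tested genes, 6.72% were called higher at the threshold (limma with Benjamini-Hochberg adjustment, adjusted p of 0.05) and 13.8% lower, 20.5% in all. The 2 groups of libraries did not overlap in 37.5% of tested genes, and in 12.8% LPS-MCM was the higher of the non-overlapping groups. The median log2 difference of the 4 was 2.27, against -0.04 over all tested genes. Differences at least as large as the smallest of the 4 were found in 0.282% of tested genes (33 genes, these included), and Cxcl3 ranked 5, Cxcl2 6, Cxcl1 32 and Cxcl5 33 among all positive differences. Log2 differences are LPS-MCM minus Hemin-MCM on the log2(FPKM + 1) scale. This scale makes the differences of low genes smaller, and those of genes near 1 FPKM much smaller.

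**Figure D1:**
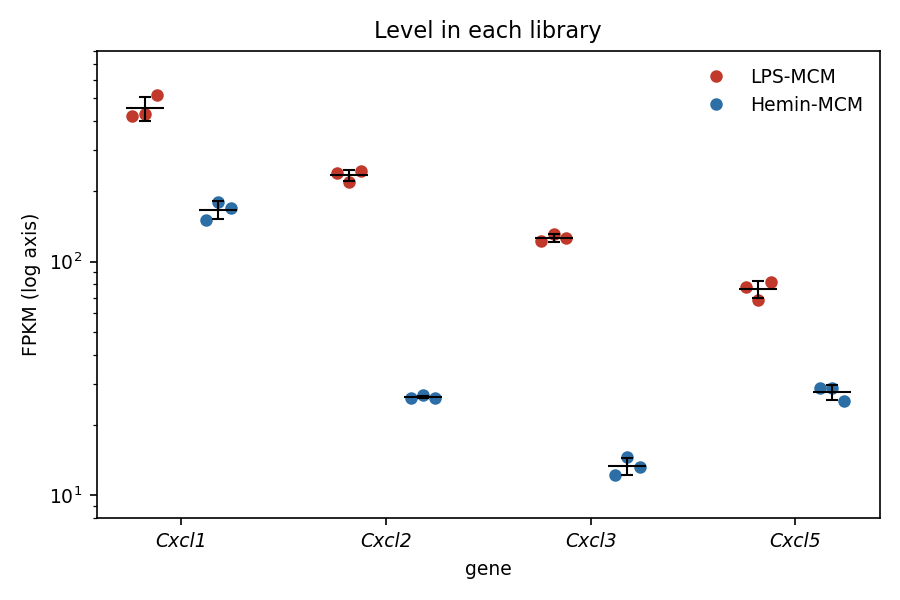
FPKM of each gene on a log axis, 1 point per library, with LPS-MCM (red) left of Hemin-MCM (blue), and the mean ± SD of 3 libraries in black. The red points lie above the blue ones for each gene, and the gap is wider for Cxcl2 and Cxcl3 than for Cxcl1 and Cxcl5.

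Cxcl2, long known as macrophage inflammatory protein 2, was at 239, 219 and 244 FPKM in the LPS-MCM libraries, against 26.2, 26.7 and 26.1 FPKM in the Hemin-MCM libraries. The Hemin-MCM libraries were nearly level with each other, and the lowest LPS-MCM library was 8.18 times the highest Hemin-MCM library. The means differed 8.88-fold (234 ± 13.6 and 26.3 ± 0.349 FPKM, SD, n = 3 each), with a log2 difference of 3.10 ± 0.05 (SE, limma adjusted p = 3.65e-10).

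Cxcl3, the least expressed of the 4 in Hemin-MCM, was at 122, 132 and 126 FPKM in LPS-MCM, against 12.3, 14.5 and 13.2 FPKM in Hemin-MCM. No library of either group came near the other group. The ratio of the means was 9.50 (127 ± 4.77 and 13.3 ± 1.15 FPKM), and the log2 difference was 3.16 ± 0.06 (SE, limma adjusted p = 1.3e-09).

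Cxcl1, also called KC, was the most abundant of the 4 in every library, at 419, 429 and 517 FPKM in LPS-MCM, against 151, 180 and 170 FPKM in Hemin-MCM. The third LPS-MCM library stood above the other two, and the groups did not overlap, since the lowest LPS-MCM library was 2.33 times the highest Hemin-MCM library. The means differed 2.73-fold (455 ± 53.6 and 167 ± 14.8 FPKM, log2 difference 1.44 ± 0.09, limma adjusted p = 4.26e-06). Among all 17730 genes its mean ranked 72 in LPS-MCM against 294 in Hemin-MCM.

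Cxcl5, also called LIX, was at 78.0, 68.9 and 81.5 FPKM in LPS-MCM, against 28.9, 28.9 and 25.3 FPKM in Hemin-MCM. All LPS-MCM libraries were above all Hemin-MCM libraries, and the ratio of the means, 2.75, was close to that of Cxcl1 (76.1 ± 6.52 and 27.7 ± 2.05 FPKM, log2 difference 1.42 ± 0.07, limma adjusted p = 1.23e-06). The 4 genes kept their direction and their call under each of the 15 alternative settings tried.

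**Figure D2:**
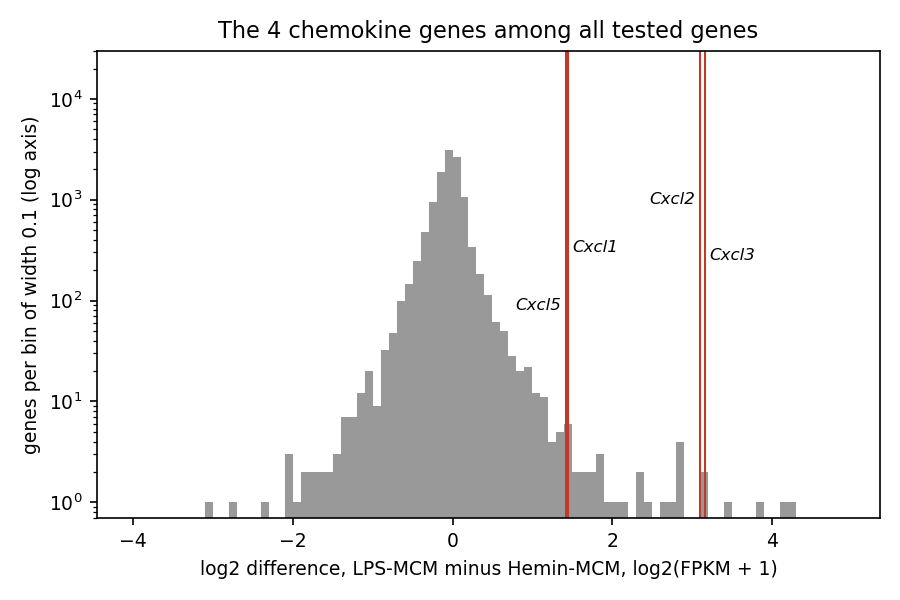
Histogram of the log2 difference, LPS-MCM minus Hemin-MCM, of the 11688 tested genes (bins of 0.1, log axis of gene counts), with a red line at each of the 4 chemokine genes. Cxcl2 (3.10) and Cxcl3 (3.16) stand in the far right tail, and Cxcl1 (1.44) and Cxcl5 (1.42) nearer the bulk.

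The log2 differences were 3.10 for Cxcl2 and 3.16 for Cxcl3, and 1.44 for Cxcl1 and 1.42 for Cxcl5, and the pairs were described after these values had been seen. In each library the log2(FPKM + 1) of one gene was subtracted from that of another, and these 6 pair differences were compared between the groups with an exact two-sided permutation test, which cannot give a p below 0.10 with 3 libraries against 3. Cxcl1 exceeded Cxcl2 by 0.95 ± 0.13 (log2, SD, n = 3) in LPS-MCM and by 2.62 ± 0.12 in Hemin-MCM, a response smaller by 1.66 ± 0.10 (SE) than that of Cxcl2. Cxcl2 exceeded Cxcl5 by 1.61 ± 0.04 in LPS-MCM and differed from it by -0.07 ± 0.10 in Hemin-MCM, a response larger by 1.68 ± 0.06. The 4 pairs that join Cxcl2 or Cxcl3 with Cxcl1 or Cxcl5 had responses 1.66 to 1.73 apart and groups that did not overlap (exact permutation p = 0.10, the smallest possible, and 0.15 adjusted over the 6 pairs). Between Cxcl1 and Cxcl5 the responses differed by 0.01 ± 0.13 (exact permutation p = 0.90) and between Cxcl2 and Cxcl3 by -0.06 ± 0.10 (exact permutation p = 0.70), which does not show that they were equal, and the sign of both differences changed under some settings.

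The order of the levels in LPS-MCM was Cxcl1, Cxcl2, Cxcl3 and Cxcl5, with no overlap between neighbours. In Hemin-MCM Cxcl1 again stood first, Cxcl5 (25.3 to 28.9 FPKM) and Cxcl2 (26.1 to 26.7 FPKM) overlapped, and Cxcl3 was last. FPKM are scaled by transcript length, and on that basis the levels were set side by side between genes. The annotation behind these lengths is not given in the sources used here, and the order depends on it.

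Summed over the 4 genes, the libraries held 858, 849 and 969 FPKM in LPS-MCM, against 218, 251 and 234 FPKM in Hemin-MCM. Cxcl1 made up 50.9 ± 2.26% of this sum in LPS-MCM against 71.2 ± 1.76% in Hemin-MCM (SD, n = 3 each). Cxcl2 contributed 26.3 ± 1.37% in LPS-MCM against 11.3 ± 0.665% in Hemin-MCM, Cxcl3 14.2 ± 1.25% and 5.68 ± 0.112%, and Cxcl5 8.54 ± 0.497% and 11.9 ± 1.23%. The shares of each gene did not overlap between the groups.

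**Figure D3:**
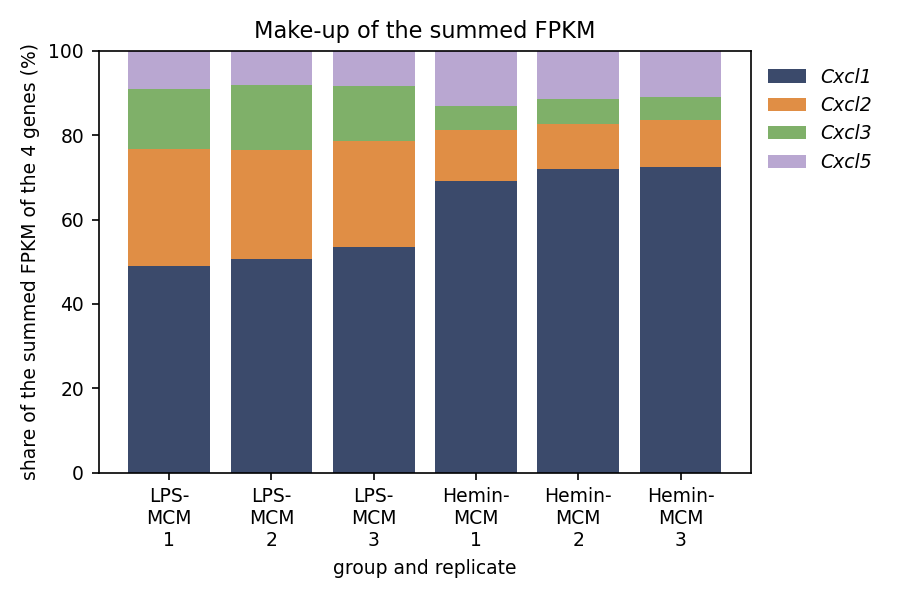
Share of each gene in the summed FPKM of the 4 genes, in percent, 1 bar per library, LPS-MCM on the left and Hemin-MCM on the right. Cxcl1 takes 48.9 to 53.4% of the sum in LPS-MCM against 69.2 to 72.4% in Hemin-MCM.

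Mouse Cxcl2 and Cxcl3 are close relatives, and reads from identical stretches can be divided between them. Of the 50-base words in the GENCODE transcripts, 61 were shared by the pair, 5.75% of those of Cxcl2 and 6.31% of those of Cxcl3, and no word was shared with or between Cxcl1 and Cxcl5. How the authors' counting treated such reads is not given in the sources used here.

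RefSeq places 7 genes between the outer ends of Cxcl5 and Cxcl2, of which 5 were tested. All 5 were called higher in LPS-MCM (6.72% of all tested genes were), but 4 of them are the chemokine genes that define the block. Only the fifth adds to the genes given above. The fifth is Pf4, which encodes platelet factor 4, a CXC chemokine without the glutamate, leucine and arginine motif. It was at 21.4, 20.2 and 15.7 FPKM in LPS-MCM, against 11.4, 14.4 and 15.8 FPKM in Hemin-MCM. These groups overlapped, and its call (log2 difference 0.44 ± 0.13, limma adjusted p = 0.0346) was lost without the first (0.113) or second LPS-MCM library (0.0942) and without the first (0.113) or second Hemin-MCM library (0.064). It was also lost in a test against a 1.5-fold change, without the low-value filter (0.115) and without the variance trend (0.0504), with 0.00754 the lowest over all alternatives. The other two genes of the block also encode CXC chemokines with the motif. The platelet chemokine gene Ppbp was at 0.366 ± 0.154 FPKM in LPS-MCM against 0.368 ± 0.1 in Hemin-MCM, and Cxcl15, known from mouse lung, at 0.103 ± 0.0139 and 0.0537 ± 0.0598 FPKM. Both were under the filter of 1 FPKM, so neither was tested.

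Within 250 kb on either side, 7 further genes were in the table and 1 was tested. It was the folate enzyme gene Mthfd2l next to Cxcl2, which did not pass (3.77 ± 0.526 FPKM in LPS-MCM against 3.8 ± 0.145 FPKM in Hemin-MCM, limma adjusted p = 0.933). Its difference was -0.01 ± 0.09, and its sign turned under both other scalings. Farther on, the gene of the growth factor amphiregulin, Areg, was at 0.142 ± 0.0633 FPKM in LPS-MCM against 1.23 ± 0.268 FPKM in Hemin-MCM, under the filter and untested.

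**Figure D4:**
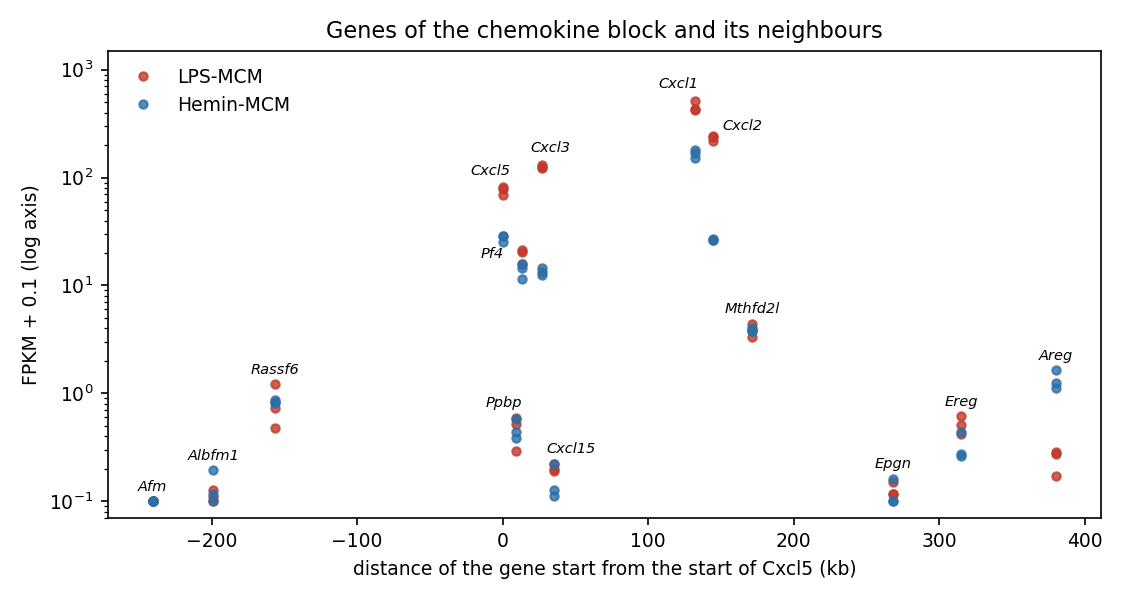
FPKM plus 0.1 on a log axis for each gene of the block and its neighbours in the table, by the distance of its start from that of Cxcl5 in kb, 1 point per library (LPS-MCM red, Hemin-MCM blue). Red and blue points separate at Cxcl5, Cxcl3, Cxcl1 and Cxcl2 and overlap at Ppbp, Cxcl15 and Mthfd2l, while at Areg the blue points are higher.

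Of 6 CXCR2-type and atypical receptors listed, 4 had values and 1 was tested. Cxcr2 did not exceed 0.0168 FPKM in any library of either group, and Cxcr1 was not analysed here. Of the atypical receptors, which bind chemokines without G protein signals, Ackr3 was at 18.6 ± 0.894 FPKM in LPS-MCM against 17.8 ± 0.855 FPKM in Hemin-MCM and did not pass (limma adjusted p = 0.506). Ackr4 was listed at 0 in all 6 libraries, and Ackr2 did not exceed 0.0497 FPKM.

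Cytokines that induce these chemokines were higher too. Of 8 inducing cytokines listed, 4 were tested and all 4 were higher in LPS-MCM (6.72% of all tested genes were). In the test against a 1.5-fold change 3 of them were called higher, all but Il33. The interleukin 1 genes Il1a (418 ± 20.2 FPKM in LPS-MCM against 38.4 ± 5.7 in Hemin-MCM) and Il1b (1067 ± 108 and 149 ± 21.1) had log2 differences of 3.42 ± 0.09 and 2.84 ± 0.10. Tnf, the tumor necrosis factor gene, was at 57.5 ± 1.91 FPKM in LPS-MCM against 13.4 ± 1.65 in Hemin-MCM, and Il33, an alarmin gene, at 5.61 ± 0.726 and 3.43 ± 0.486. Il17c and Il17f, for ligands of the interleukin 17 family, did not exceed 0.0184 FPKM in any library.

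Of 18 receptors and adaptors for these signals, 7 were higher, 1 was lower and 10 did not pass (median log2 difference 0.16). Among all tested genes 6.72% were higher and 13.8% lower. The test against a 1.5-fold change called 2 of the 18 higher. The tumor necrosis factor receptor gene Tnfrsf1b (2.14 ± 0.11, 68.0 ± 5.54 FPKM in LPS-MCM against 14.8 ± 2.61 in Hemin-MCM) and the LPS co-receptor gene Cd14 (0.88 ± 0.06) led the list. Traf3ip2 (0.58 ± 0.07), which encodes the adaptor Act1 of interleukin 17 receptors, and Il1rap (0.35 ± 0.06), the accessory chain of the interleukin 1 receptor, were also higher. The kinase gene Irak4 was lower (-0.25 ± 0.06, limma adjusted p = 0.0129), and this call was lost when the third library of Hemin-MCM was left out (0.0616), while its lowest adjusted p under any alternative was 0.0101. The call was also lost in the test against a 1.5-fold change.

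Of 15 genes of NF-kB subunits, IkB proteins and their feedback, 11 were higher, none was lower and 4 did not pass (median 0.31). Among all tested genes the share called higher was 6.72%. The test against a 1.5-fold change called 2 of the 15 higher, and 72 of all 11688 tested genes. The feedback inhibitor genes Tnfaip3 (1.11 ± 0.06) and Tnip1 (0.60 ± 0.05), the IkB gene Nfkbib (0.61 ± 0.09) and Nfkbiz (0.85 ± 0.05), for a nuclear IkB protein, had the smallest adjusted p, all under 0.001 (limma, at most 0.000681).

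Among 11 regulators of AU-rich and other short-lived transcripts, 5 were higher, 1 was lower and 5 did not pass (median 0.10). The shares over all tested genes were 6.72% higher and 13.8% lower. Zc3h12a, which encodes the RNase Regnase-1, was higher by 0.87 ± 0.07 and the kinase gene Mapkapk2, whose product blocks decay through AU-rich elements, by 0.43 ± 0.06. Arid5a, for a protein that stabilizes cytokine transcripts (0.24 ± 0.06, limma adjusted p = 0.0177), and the phosphatase gene Dusp1 (-0.26 ± 0.07, adjusted p = 0.022) lost their calls in some settings. Both did so in the test against a 1.5-fold change. For Arid5a the other settings were the fits without the second library of LPS-MCM (0.0595) and without the first (0.065) or the third (0.0602) of Hemin-MCM, and its lowest adjusted p was 0.00658. For Dusp1 the other settings were the fits without the first library of LPS-MCM (0.0818) and without the first (0.0837) or the third (0.0694) of Hemin-MCM, median-of-ratios scaling (0.0546) and no filter (0.0533), and its lowest was 0.0124. The count of higher genes in this list was 3 without the second or the third library of LPS-MCM or the second of Hemin-MCM, and 2 without the first or the third of Hemin-MCM, and it was 3 without the filter and 3 without the variance trend. It was 0 in the test against a 1.5-fold change.

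Of 11 further genes that act on neutrophils or their passage through vessels, 5 were higher, 1 was lower and 5 did not pass (median 0.34). Over all tested genes the shares were 6.72% higher and 13.8% lower. In the test against a 1.5-fold change 3 were called higher. Csf3, which encodes granulocyte colony-stimulating factor, was at 29.6, 32.1 and 23.7 FPKM in LPS-MCM, against 1.1, 1.06 and 0.854 FPKM in Hemin-MCM (log2 difference 3.87 ± 0.10, or 2.47 with a pseudocount of 5). The gelatinase gene Mmp9 (1.11 ± 0.11) and Selp, for P-selectin (0.65 ± 0.07), were also higher. Csf2, for the granulocyte-macrophage factor, was at 1.96 ± 0.323 FPKM in LPS-MCM against 0.169 ± 0.0929 FPKM in Hemin-MCM. It passed the filter only through its LPS-MCM level and was not tested when any 1 LPS-MCM library was left out, so its call carries little weight, and its log2 difference of 1.34 became 3.00 with a pseudocount of 0.1 and 0.43 with one of 5. The complement C5a receptor gene C5ar1 was lower (-0.52 ± 0.07).

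Among 9 CXC chemokine genes without the neutrophil-attracting motif, 6 were tested, of which 5 were higher and 1 was lower (median 0.46, against 2.27 for the 4 neutrophil-attracting genes). Over all tested genes 6.72% were higher and 13.8% lower. The 5 include Pf4, whose call was lost in several settings. In the test against a 1.5-fold change only Cxcl12 of these was called higher. Cxcl12 (0.87 ± 0.06), which retains stem cells and lymphocytes, and the interferon-induced genes Cxcl9 (1.00 ± 0.12) and Cxcl10 (0.48 ± 0.06) were higher, and Cxcl14 was lower (-0.36 ± 0.06). Cxcl9 was at 2.53 ± 0.222 FPKM in LPS-MCM against 0.784 ± 0.321 FPKM in Hemin-MCM, and its log2 difference became 1.64 with a pseudocount of 0.1 and 0.38 with one of 5. Like Csf2, Cxcl9 passed the filter only through its LPS-MCM level, so its call carries little weight. Cxcl10 was at 716 ± 53.8 FPKM in LPS-MCM against 510.4 ± 9.62 FPKM in Hemin-MCM.

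**Figure D5:**
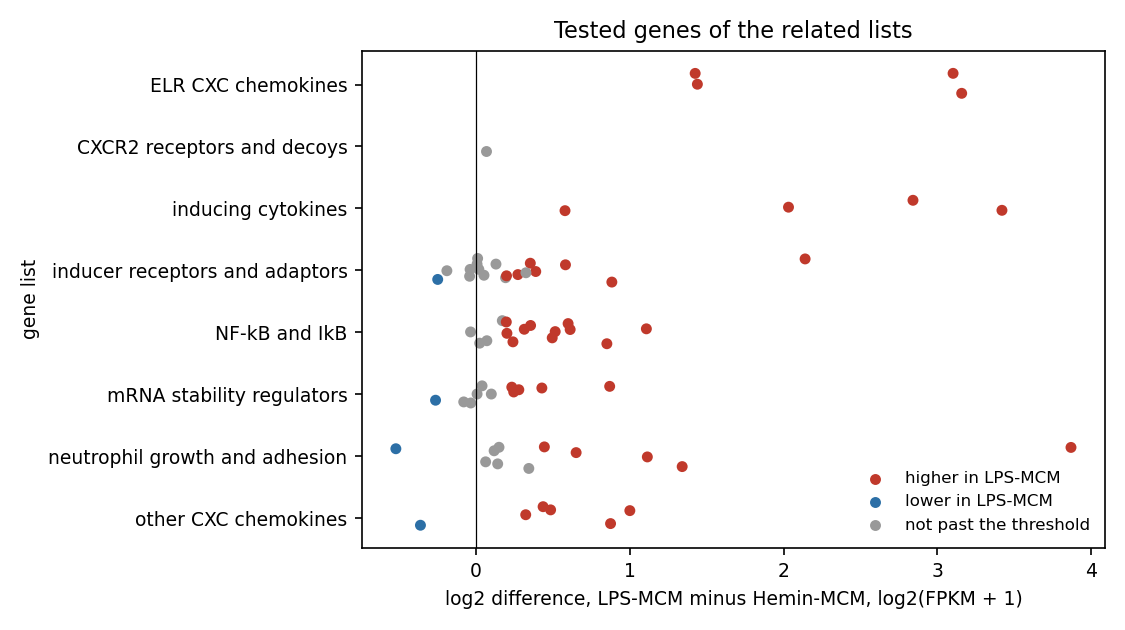
Log2 difference, LPS-MCM minus Hemin-MCM, of each tested gene of the 8 lists, 1 row of points per list (vertical spread within a row has no meaning). Red points passed the test as higher, blue as lower and grey did not pass. The largest differences are those of Csf3, Il1a, Cxcl3 and Cxcl2. Most NF-kB, IkB, receptor and adaptor genes lie closer to 0, with Tnfrsf1b (2.14) an exception.

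For each chemokine gene the 3 most similar profiles were found by the root mean square distance of log2(FPKM + 1) over the 6 libraries, each gene centred on its own mean. Nearest to Cxcl2 were Ptgs2, which encodes the inducible cyclooxygenase (distance 0.175), the chemokine gene Ccl3 (0.185) and Il1b (0.209). Nearest to Cxcl3 were Il1a (0.15), Ccl3 (0.171) and Ptgs2 (0.178). Nearest to Cxcl1 were the serum amyloid gene Saa3 (0.122), Csf2 (0.124) and Cd38, for an ectoenzyme that consumes NAD (0.136), and nearest to Cxcl5 were Csf2 (0.0658), the macrophage elastase gene Mmp12 (0.116) and the prostaglandin E synthase gene Ptges (0.132). The distance takes in the size of the difference between the groups, so genes with a like difference come out as near. For Csf2 the closeness depends on the pseudocount of 1: with 0.1 its log2 difference was 3.00, against 1.45 for Cxcl5 and 1.44 for Cxcl1. Saa3 was at 5944 ± 162 FPKM in LPS-MCM against 2170 ± 259 FPKM in Hemin-MCM.

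The label of the cultures was checked with marker genes. Of 10 astrocyte markers, all were in the table and 9 were above the filter, with summed levels of 1279 to 1321 FPKM in LPS-MCM against 1582 to 1669 FPKM in Hemin-MCM. Of the 9, 1 was higher, 5 were lower and 3 did not pass, while 6.72% of all tested genes were higher and 13.8% lower. Gfap, the astrocyte filament gene, was lower (456 ± 23.1 FPKM in LPS-MCM, 676 ± 28.6 in Hemin-MCM), and the glutamate transporter gene Slc1a2 was higher (54.8 ± 1.24 FPKM in LPS-MCM, 42.0 ± 1.67 in Hemin-MCM). All 16 microglia and macrophage markers were also above the filter. The test called 14 of them lower and none higher (13.8% of all tested genes were lower). The 2 that did not pass were Itgam (98.9 ± 5.07 FPKM in LPS-MCM, 108 ± 1.41 in Hemin-MCM) and Ptprc (11.5 ± 0.785 and 12.3 ± 0.435). P2ry12 (0.397 ± 0.0743 and 2.05 ± 0.232) and Tmem119 (0.518 ± 0.282 and 4.63 ± 0.734) passed the filter only through Hemin-MCM, so their calls carry little weight. Summed levels were 1845 to 2122 FPKM in LPS-MCM against 3958 to 4279 FPKM in Hemin-MCM, mostly from Lyz2 (1540 ± 106 and 3303 ± 147). Cx3cr1, whose product binds fractalkine, was at 5.92 ± 0.401 and 34.0 ± 0.968 FPKM. The chemokine genes were higher where these markers were lower, and whether astrocytes or microglia made the chemokine transcripts was not tested. In such bulk samples fewer cells of a type and less RNA per cell cannot be told apart.

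Of 10 neutrophil markers, 9 had values and 3 were above the filter, with summed levels of 23.1 to 25.9 FPKM in LPS-MCM against 6.47 to 9.78 FPKM in Hemin-MCM. Mpo was listed at 0 in all 6 libraries, and Ly6g was listed at 0 in all Hemin-MCM libraries and did not exceed 0.03 FPKM in LPS-MCM. Mmp8, the neutrophil collagenase gene (15.4 ± 0.57 FPKM in LPS-MCM against 3.44 ± 0.419 in Hemin-MCM), and the calprotectin gene S100a8 (5.42 ± 1.58 and 1.59 ± 0.819) were higher, and Camp did not pass. Mmp8 and S100a8 made up most of the sums. S100a9, under the filter and untested, was at 0.604 ± 0.477 FPKM in LPS-MCM against 0.734 ± 0.203 in Hemin-MCM. Ngp and Retnlg did not exceed 0.216 FPKM in any library. All 8 endothelial markers had values but none reached the filter, with sums of 1.16 to 1.79 FPKM in LPS-MCM against 1.74 to 2.06 FPKM in Hemin-MCM. Summed ependymal markers were at 169 to 180 FPKM in LPS-MCM against 243 to 253 FPKM in Hemin-MCM, and 6 of 6 tested were lower. For this and the other marker counts, the shares over all tested genes were 13.8% lower and 6.72% higher. Fibroblast and meningeal markers (2 higher and 1 lower of 7 tested) summed to 37.3 to 44.0 FPKM in LPS-MCM against 46.0 to 58.6 FPKM in Hemin-MCM. Oligodendrocyte lineage markers (2 lower of 6 tested) summed to 98.2 to 104.2 and 120.7 to 128.5 FPKM, neuron markers (1 higher and 1 lower of 3) to 16.1 to 17.2 and 18.3 to 19.5 FPKM, and pericyte markers (0 of 1 tested) to 12.4 to 12.6 and 12.8 to 14.2 FPKM. The part of these cells in the chemokine levels was not tested.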

How the data were processed

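RNA-seq libraries of astrocyte cultures, made with a stranded mRNA kit per the labels' protocols, were represented by FPKM values that the authors computed and deposited in 1 table. The submitters' processing notes name mm10 and DESeq. Aligner, counter and annotation: not given in the sources used here. Each column was assigned by its treatment and number, and 3 value columns that match no sample title were not used, so resting-microglia medium was not compared. The deposited FPKM were taken to log2(FPKM + 1). Genes averaging 1 FPKM or more across the 6 libraries (11688) were fitted with limma 3.58.1 in R 4.3.3 (moderated variance with trend, 4 residual degrees of freedom, two-sided, Benjamini-Hochberg threshold 0.05). The fit was tested on simulated data with 200 changed genes. No count model was used, since FPKM are not counts. Coordinates and promoters come from RefSeq on GRCm38.p6 (17618 of 17730 genes matched), the build mm10 stands for, and UTRs from GENCODE M21. The genes named are the 4 chemokines, their 3 nearest profiles each, up to 4 genes of each list by adjusted p, any listed at 0, and the chromosome block. Beyond this rule, Irak4, C5ar1, Nfkbia, Gbp5, the Il17 genes, Ackr2 and the markers were named after their values were seen. The 4 genes, the lists and the tests were chosen with earlier results of these data known.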

Additional observations from a re-analysis of the deposited data

How the results depend on the processing

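The 4 chemokine genes kept their direction and their call under all 15 alternatives, with log2 differences of 1.34 to 1.5 for Cxcl1, 2.93 to 3.16 for Cxcl2, 2.85 to 3.24 for Cxcl3 and 1.31 to 1.49 for Cxcl5, and a highest adjusted p (limma) of 0.000612. Of 2400 genes called, 32.8% were higher, against 49.9% under median-of-ratios scaling and 44.9% under quantile normalization. The test against a 1.5-fold change called 137 genes, 72 higher and 65 lower (52.6% higher). Leaving out 1 library at a time gave 1058 to 1652 genes lower, 581 to 763 higher and 1639 to 2415 in all, with the fewest lower (1058, against 1614) without the third Hemin-MCM library.

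The small differences in response between Cxcl1 and Cxcl5 (0.01) and between Cxcl2 and Cxcl3 (-0.06) had no stable sign. The first was -0.0229 under quantile normalization and -0.00985 with a pseudocount of 0.1, the second 0.0835 with a pseudocount of 5, and without 1 library they lay between -0.0857 and 0.0891 and between -0.106 and 0.0201. Over the 10 alternatives tried for the pairs, the lowest adjusted p (exact permutation) was 0.5 for the first difference and 0.36 for the second. Mthfd2l was at 0.0304 under median-of-ratios scaling and 0.0707 under quantile normalization, and between -0.094 and 0.0656 without 1 library. A pseudocount of 5 in place of 1 lowered the log2 differences of low genes, to 0.33 for Il33, 0.36 for Traf3ip2, 0.64 for Mmp9, 0.87 for Cd38, 0.66 for S100a8 and -0.16 for Irak4, with their calls kept. The cause of the other changes was not tested. The other single genes named lost their call in 35 cases, mostly in the test against a 1.5-fold change.

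Replicate numbers were shared by the groups. Same-numbered libraries deviated from their group means with correlations of 0.0796, 0.107 and -0.106 across genes, so the numbers were not taken as pairs, and not every library correlated best with its own number. With the replicate number as a block, 2330 genes were called, all 4 chemokines among them, and Cxcl1 differed from Cxcl2 in response by -1.66 as before (exact sign-flip permutation p no lower than 0.25). The alternatives that drop a library leave groups of 3 and 2. Depth limits the genes near 0, whose levels rest on few fragments.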
